A study of Homo sapiens with 4 samples.

Results

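The 10 genes described here encode enzymes that make, lengthen, desaturate and activate long-chain fatty acids. They are ACLY, ACACA, FASN, ELOVL1, ELOVL5, ELOVL6, SCD, FADS1, FADS2 and ACSL3. They were taken by name, as the rows of the deposited tables that carry these symbols. The names were picked with earlier results of these data known. Each symbol had 1 row among the 60487 gene rows of a library. All 10 were among the 18299 genes kept for testing, which reached at least 1 FPKM, a fragment count scaled to transcript length and library size, in at least 1 library.

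Cells build fatty acids from citrate that leaves the mitochondrion. ACLY splits this citrate into acetyl-CoA, ACACA carboxylates acetyl-CoA to malonyl-CoA, and FASN joins these units into palmitate, which the ELOVL enzymes lengthen and the desaturases SCD, FADS1 and FADS2 provide with double bonds. Many of these genes are targets of the SREBP transcription factors, which are held in the endoplasmic reticulum by INSIG proteins when sterols are plentiful, and tumour cells often run the pathway at a high rate.

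The cells were HCC1937, an established breast carcinoma line. The vector line has the genotype BRCA1 -/- in the labels and carries a vector, and the wtBRCA1 line has the genotype wild type. Each line received either DMSO, the solvent, or OTX-015 (birabresib), a small molecule that blocks the bromodomains of BET proteins. Dose, exposure time and whether the wtBRCA1 line is 1 clone are not given in the sources used here. Each of the 4 groups is 1 library, so no value below has a replicate.

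Effects common to both lines or both treatments were tested with limma on log2(FPKM + 1), with Benjamini-Hochberg adjustment over all 18299 genes and a threshold of 0.05. Rose and fell refer to this test, which sets the mean change over both levels of the other factor against a spread. That spread comes from how unlike both changes were, but it is borrowed mostly from other genes, as is each SE below. An SE therefore does not measure how unlike the changes of its own gene were. Neither the spread nor the SE says anything of repeat cultures. A pair of libraries was not tested, and a pair is described as past 2-fold where its log2 difference on that scale was at least 1. Fold differences given as "times" are ratios of FPKM.

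Sequencing depth is unknown, because the files hold no counts. The FPKM values summed to 909314 and 962378 in the DMSO libraries of vector and wtBRCA1 cells, and to 1496107 and 1477103 in the OTX-015 libraries. The 10 highest genes took 15.3% to 17.4% of that sum under DMSO and 33.8% to 39.2% under OTX-015, and the part of this in the OTX-015 differences below was not tested. The FPKM of BRCA1 was 37.2 (DMSO) and 40.8 (OTX-015) for vector cells, against 171 and 2712 for wtBRCA1 cells. The epithelial markers EPCAM, CDH1, KRT8, KRT18 and KRT5 were present in every library. Of 4 fibroblast, 3 immune, 2 endothelial and 3 adipocyte markers, 4 were above 0 in any library, with CD68 the highest at 15.5 to 44.6 FPKM. The fibroblast sums were 1.86 to 9.78 FPKM, the immune sums 15.5 to 44.6 and the endothelial sums 0.67 to 4.88, and COL1A2, DCN, PDGFRB, CD3E, VWF and the adipocyte genes ADIPOQ, PLIN1 and LEP were listed at 0.

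FASN, ACLY and ACSL3 rose under OTX-015 in both lines, and no gene of the 10 fell. The share called higher among all genes tested was 3.62%, and the share called lower was 2.65%. SCD and FADS1 fell in wtBRCA1 cells relative to vector cells under both treatments, and none of the 10 rose. For that comparison the shares of all genes were 3.37% lower and 4.84% higher. The summed FPKM of the 10 genes was 889 (DMSO) and 1639 (OTX-015) for vector cells, against 607 and 1134 for wtBRCA1 cells. As a share of all FPKM in the library the same sums were 0.0978%, 0.110%, 0.0631% and 0.0768%, so the wtBRCA1 libraries held the lower shares. In bulk RNA, fewer cells that express a gene and less RNA per cell cannot be told apart.

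**Figure D1:**
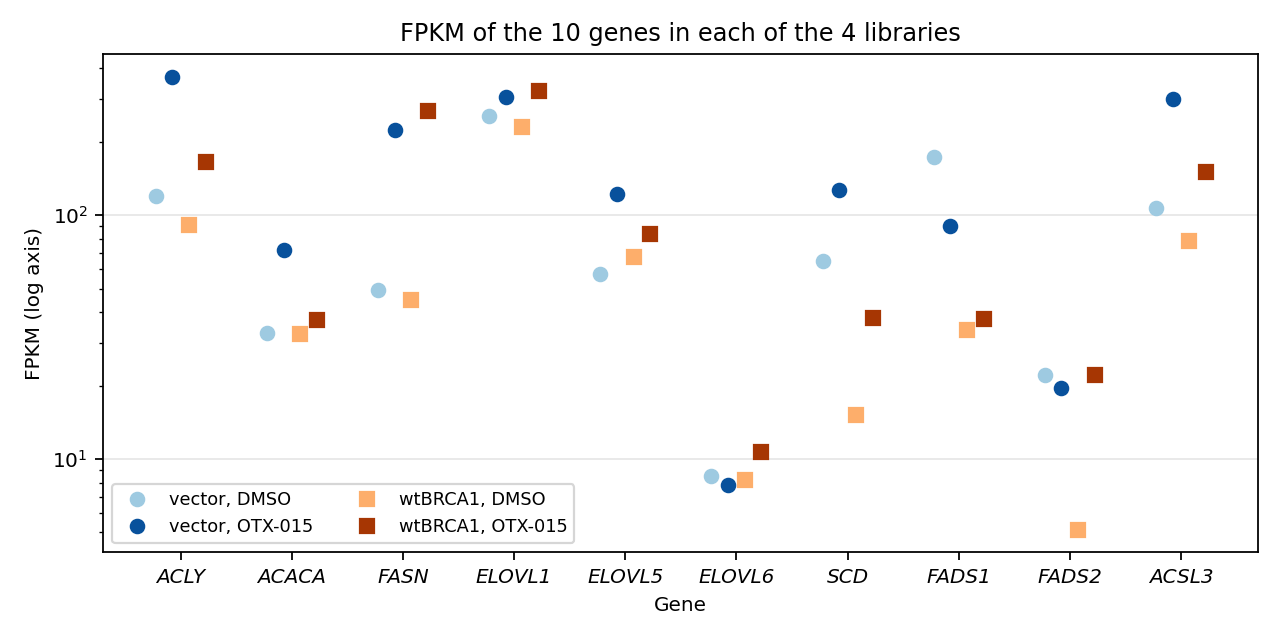
FPKM (log axis) of each of the 10 genes in the 4 libraries, with 1 point per library, circles for vector cells and squares for wtBRCA1 cells, and darker points for OTX-015. FASN is near 45 to 49 FPKM in both DMSO libraries and at 223 and 267 in both OTX-015 libraries, while SCD and FADS1 separate by line.

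FASN (ENSG00000169710, chromosome 17, 82078333 to 82098332, minus strand, hg38, GENCODE 29) had the largest OTX-015 effect of the 10 genes. It encodes the multifunctional synthase that releases palmitate. It was listed at 49.4 FPKM (vector, DMSO), 223 (vector, OTX-015), 44.7 (wtBRCA1, DMSO) and 267 (wtBRCA1, OTX-015). Both OTX-015 libraries lay above both DMSO libraries, by 4.51 times within the vector line and 5.97 times within the wtBRCA1 line. The effect over both lines was 2.35 ± 0.28 on the log2 scale (SE, limma adjusted p = 0.00288). Between the lines the FASN effect was 0.06 ± 0.28 (limma adjusted p = 0.922). Ranked among all genes kept in a library, FASN stood at the percentiles 83.9 and 82.0 under DMSO and 95.7 and 96.4 under OTX-015.

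ACLY (ENSG00000131473, chromosome 17, 41866908 to 41930542, minus strand) makes the cytosolic acetyl-CoA that feeds the pathway. Its FPKM was 119.5 (vector, DMSO), 369.8 (vector, OTX-015), 91.2 (wtBRCA1, DMSO) and 165 (wtBRCA1, OTX-015). The OTX-015 library was the higher in each line, 3.09 times in vector cells and 1.81 times in wtBRCA1 cells, and the vector line was the higher under each treatment. ACLY rose by 1.23 ± 0.28 on the log2 scale under OTX-015 (limma adjusted p = 0.0356). Its line effect of -0.78 ± 0.28 did not pass (limma adjusted p = 0.133). An antisense gene of 156 bases inside ACLY was listed at 551, 1164, 329 and 625 FPKM in the same order of libraries. The libraries were directional, but whether strand was used in the quantification is not given, so reads of ACLY and of this gene cannot be told apart with certainty.

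ACACA (ENSG00000278540, chromosome 17, 37084988 to 37406818, minus strand) encodes the cytosolic acetyl-CoA carboxylase, the committed step of synthesis. It was listed at 32.9 FPKM (vector, DMSO), 71.8 (vector, OTX-015), 32.6 (wtBRCA1, DMSO) and 37.3 (wtBRCA1, OTX-015). The vector OTX-015 library stood apart at 2.18 times its DMSO library, and the other 3 libraries lay between 32.6 and 37.3 FPKM. The OTX-015 effect of ACACA was 0.65 ± 0.34 and did not pass (limma adjusted p = 0.304). FASN and ACACA are consecutive enzymes. The FPKM ratio of FASN to ACACA, which no constant factor per library can alter, was 1.501 and 1.37 under DMSO in vector and wtBRCA1 cells, and 3.11 and 7.15 under OTX-015.

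ACSL3 (ENSG00000123983, chromosome 2, 222860934 to 222944639, plus strand) encodes a synthetase that couples long-chain fatty acids to coenzyme A on the endoplasmic reticulum and lipid droplets. Its FPKM was 107 (vector, DMSO), 301 (vector, OTX-015), 78.7 (wtBRCA1, DMSO) and 150.04 (wtBRCA1, OTX-015). The order of the libraries was that of ACLY, with OTX-015 above DMSO in each line and vector above wtBRCA1 cells under each treatment. ACSL3 rose by 1.20 ± 0.28 under OTX-015 (limma adjusted p = 0.0352), and its line effect of -0.72 ± 0.28 did not pass (limma adjusted p = 0.15). Of the 3 genes that rose, FASN stayed past the threshold in 10 of 12 alternative analyses, ACSL3 in 3 and ACLY in 2, with effects of 1.69 to 2.37, 0.54 to 1.21 and 0.57 to 1.24. The ACLY call held only with robust estimation and with 1 row kept per symbol, which cannot alter the values of a gene with 1 row. The ACSL3 call held in these and with a pseudocount of 0.1 (limma adjusted p = 0.0493). ACSL3 and ACLY lost their call under each of 4 other scalings of the libraries, with limma adjusted p from 0.067 to 0.23 for ACSL3 and from 0.0701 to 0.229 for ACLY.

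SCD (ENSG00000099194, chromosome 10, 100347124 to 100364834, plus strand) encodes the desaturase that turns saturated into monounsaturated fatty acids. It was listed at 65.2 FPKM (vector, DMSO), 127 (vector, OTX-015), 15.1 (wtBRCA1, DMSO) and 37.7 (wtBRCA1, OTX-015). Both wtBRCA1 libraries lay below both vector libraries, and SCD was 4.32 times higher in vector than in wtBRCA1 cells under DMSO and 3.37 times higher under OTX-015. SCD fell by 1.88 ± 0.31 on the log2 scale in wtBRCA1 cells (limma adjusted p = 0.00687). The OTX-015 libraries were 1.95 times the DMSO library in vector cells and 2.50 times in wtBRCA1 cells, and the effect over both lines, 1.11 ± 0.31, did not pass (limma adjusted p = 0.0645). Relative to FASN, SCD had an FPKM ratio of 1.32 (vector, DMSO), 0.570 (vector, OTX-015), 0.337 (wtBRCA1, DMSO) and 0.141 (wtBRCA1, OTX-015). That ratio was lower under OTX-015 in each line and lower in wtBRCA1 cells under each treatment.

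FADS1 (ENSG00000149485, chromosome 11, 61799625 to 61829318, minus strand) encodes the delta-5 desaturase of polyunsaturated fatty acids. Its FPKM was 173 (vector, DMSO), 90.5 (vector, OTX-015), 34.0 (wtBRCA1, DMSO) and 37.4 (wtBRCA1, OTX-015). Both wtBRCA1 libraries lay below both vector libraries, and the vector DMSO library was the highest. FADS1 fell by 1.78 ± 0.34 on the log2 scale in wtBRCA1 cells (limma adjusted p = 0.0126), and was 5.10 times higher in vector cells under DMSO and 2.42 times higher under OTX-015. Among the 10 genes ordered by FPKM, FADS1 was the second highest in vector cells under DMSO and the sixth or seventh in the other 3 libraries. The OTX-015 effect over both lines was -0.40 ± 0.34 (limma adjusted p = 0.536). It joined a log2 difference of -0.93 in vector cells to one of 0.13 in wtBRCA1 cells, which turned to -0.465 with each library rescaled to the same sum and to -0.18 with the protein-coding sum.

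FADS2 (ENSG00000134824, chromosome 11, 61792980 to 61867354, plus strand) encodes the delta-6 desaturase, which acts before FADS1 on the same fatty acids. It was listed at 22.1 FPKM (vector, DMSO), 19.5 (vector, OTX-015), 5.13 (wtBRCA1, DMSO) and 22.1 (wtBRCA1, OTX-015). The wtBRCA1 DMSO library stood alone at the low end, and the other 3 libraries lay between 19.5 and 22.1 FPKM. The log2 difference between OTX-015 and DMSO was -0.17 in vector cells and 1.91 in wtBRCA1 cells. Neither the OTX-015 effect (0.87 ± 0.48, limma adjusted p = 0.323) nor the line effect (-0.87 ± 0.48, limma adjusted p = 0.315) passed. The FPKM ratio of FADS1 to FADS2 was 7.84 and 4.65 for vector cells, and 6.62 and 1.69 for wtBRCA1 cells, under DMSO and OTX-015, so the wtBRCA1 OTX-015 library was the one where both desaturases came closest. In GENCODE 29 the whole FADS1 gene, 29694 bases with its introns, lies within the FADS2 gene on the opposite strand. How much of this overlap is exon was not computed. The libraries were directional, but whether strand was used in the quantification is not given. Reads of the overlap may therefore have been split between FADS1 and FADS2. Their neighbour TMEM258 was listed at 381 to 538 FPKM and FEN1, which lies within the FADS2 gene for 4265 of its bases, at 27.6 to 32.3.

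Among the elongases, ELOVL5 (ENSG00000012660, chromosome 6, 53267398 to 53349179, minus strand), which lengthens polyunsaturated fatty acids, was listed at 57.5 FPKM (vector, DMSO), 122 (vector, OTX-015), 67.2 (wtBRCA1, DMSO) and 83.6 (wtBRCA1, OTX-015). As for ACACA, the vector OTX-015 library was the high one, at 2.13 times its DMSO library, and the effect over both lines of 0.69 ± 0.31 did not pass (limma adjusted p = 0.22). ELOVL1 (ENSG00000066322, chromosome 1, 43363397 to 43368074, minus strand) makes saturated and monounsaturated very long chains. It had 254 FPKM (vector, DMSO), 306 (vector, OTX-015), 230.4 (wtBRCA1, DMSO) and 323 (wtBRCA1, OTX-015). ELOVL1 was the highest of the 10 genes in every library except vector cells under OTX-015, where ACLY was higher. ELOVL6 (ENSG00000170522, chromosome 4, 110045846 to 110199199, minus strand), which extends palmitate to stearate, was listed at 8.53 FPKM (vector, DMSO), 7.84 (vector, OTX-015), 8.23 (wtBRCA1, DMSO) and 10.7 (wtBRCA1, OTX-015). It was the lowest of the 10 in every library except wtBRCA1 cells under DMSO, where FADS2 was lower. Neither the OTX-015 effect of ELOVL1 (0.38 ± 0.23, limma adjusted p = 0.388) nor that of ELOVL6 (0.11 ± 0.36, limma adjusted p = 0.878) passed. The line effects of ACACA, ELOVL5, ELOVL1 and ELOVL6 were -0.47, -0.16, -0.03 and 0.18 and did not pass either, with limma adjusted p from 0.456 to 0.951.

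Promoter sequence is shown for ACLY, ACACA and SCD because ACLY rose under OTX-015, ACACA did not pass that test, and SCD fell in wtBRCA1 cells. The RefSeq windows (GRCh38.p14, plus-strand coordinates, from 250 bases before to 50 after a start site) held 9 of the 10 genes, all but FASN, in 13 windows. Each was searched on both strands for the sterol regulatory element core TCACNCCAC, the E-box CACGTG and the CCAAT box CCAAT, read as ATTGG on the other strand. These 3 motifs did not overlap one another in the stretches printed. Each stretch is written 5′ to 3′ on the strand of its gene, outside GENCODE 29 exons, and the capitals mark CCAAT or ATTGG.
ACLY, chr17:41919023-41919107, minus strand: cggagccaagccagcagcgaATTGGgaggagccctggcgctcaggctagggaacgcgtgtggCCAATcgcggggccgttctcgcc
ACACA, one window, chr17:37359298-37359342, minus strand: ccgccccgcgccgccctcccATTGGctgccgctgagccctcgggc
ACACA, another window, chr17:37299879-37299942, minus strand: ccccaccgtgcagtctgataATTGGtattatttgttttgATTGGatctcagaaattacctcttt
SCD, chr10:100346984-100347071, plus strand: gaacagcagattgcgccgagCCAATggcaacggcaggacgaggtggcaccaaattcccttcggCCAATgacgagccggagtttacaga
ACLY and SCD have 2 matches each in these stretches, and ACACA has 3 over its 2 stretches. CCAAT was in 9 of 13 windows, against 34.6% of 35116 promoter windows. These windows belong to 7 of the 9 genes, a count per gene that has no such share beside it. FADS1, which like SCD fell in wtBRCA1 cells, and ELOVL6 had no match to any motif searched. Both ACLY windows overlap and count the same 2 matches, and ACACA has 3 windows, so the windows are not independent. CACGTG was in 1 member window, that of ELOVL5, against 7.26%, and TCACNCCAC was in 0 of 13, against 1.13%. These matches describe letters in a window and no binding was measured.

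Within the vector line, ACLY, ACACA, FASN, ELOVL5 and ACSL3 were past 2-fold higher under OTX-015 and none was past 2-fold lower. The shares of all genes past 2-fold in that pair were 13.0% higher and 12.7% lower. SCD lay just outside at a log2 difference of 0.95 and ELOVL5 just inside at 1.08. Within the wtBRCA1 line, FASN, SCD and FADS2 were past 2-fold higher and none was past 2-fold lower, where the shares of all genes were 13.0% and 13.4%. FASN was the only gene of the 10 past 2-fold higher in both lines, a pattern shared by 4.57% of all genes. The median log2 difference over the 10 genes was 1.01 in vector cells, where 7 of them had a difference above 0, and 0.67 in wtBRCA1 cells, where all 10 did. The median of all genes was 0.00 in both pairs. With each library rescaled to the same sum, the medians over the 10 genes were 0.30 and 0.05. On that scale the median of all genes shifted by -0.48 and -0.43, so these medians are not to be read against 0.00. In vector cells FASN alone was then past 2-fold higher and FADS1 alone past 2-fold lower. No share of all genes was computed there.

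**Figure D2:**
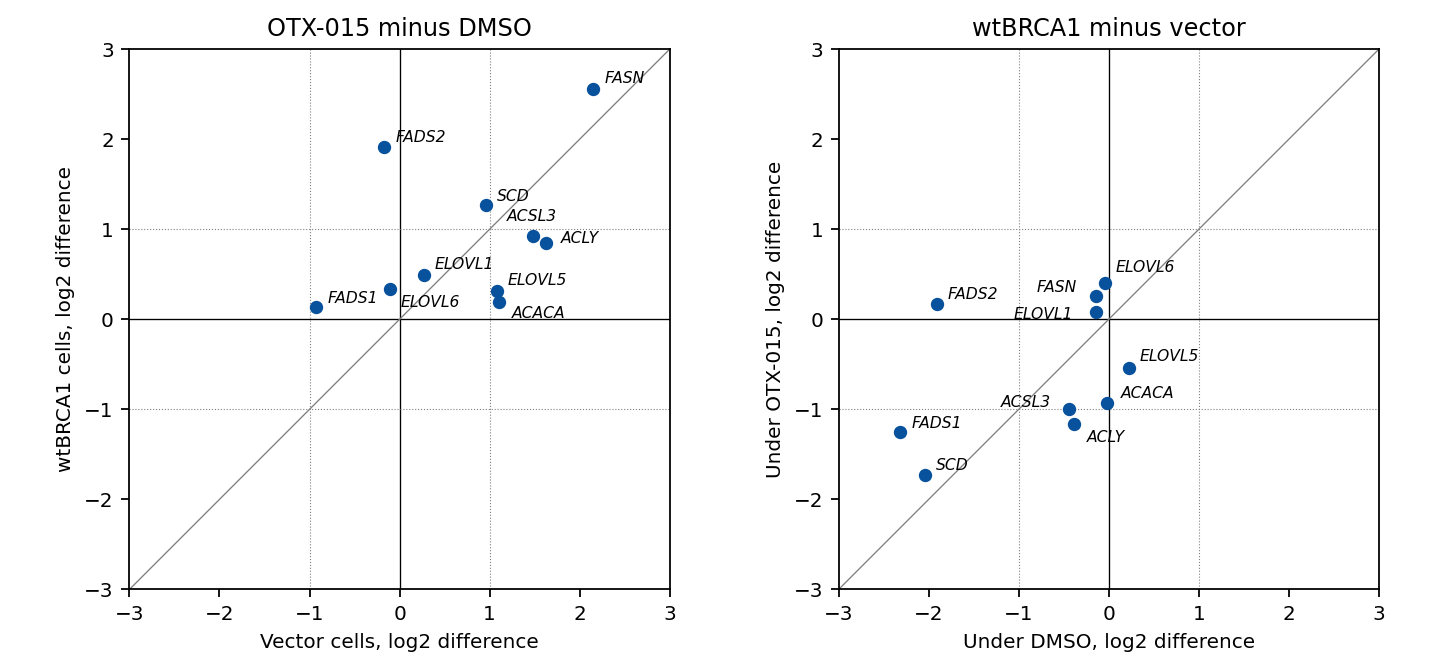
Log2 differences of the 10 genes on the log2(FPKM + 1) scale, for OTX-015 against DMSO in vector cells (x) and wtBRCA1 cells (y) on the left, and for wtBRCA1 against vector cells under DMSO (x) and OTX-015 (y) on the right, with dotted lines at a 2-fold difference and a diagonal of equal values. FADS2 lies far above the left diagonal, at -0.17 against 1.91, and SCD and FADS1 lie below -1 on both axes at the right.

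The 2 lines differed in response by at least 1 log2 unit for FADS1, by 1.06, and for FADS2, by 2.09, both with the higher value in wtBRCA1 cells. Of all genes, 27.2% differed as much, and this difference has no residual to test it against. The nearest gene under that size was ACACA at -0.91, followed by ACLY at -0.78 and ELOVL5 at -0.76, which had the higher value in vector cells.

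Under DMSO, SCD, FADS1 and FADS2 were past 2-fold lower in wtBRCA1 than in vector cells, and none of the 10 was past 2-fold higher. The shares of all genes in that pair were 11.7% lower and 14.8% higher. All 3 genes are desaturases, but FADS3 and SCD5, isoforms outside the 10, had log2 differences of 1.55 and 0.21 in that pair. Of the other 7 of the 10 genes, the log2 differences ran from -0.44 for ACSL3 to 0.22 for ELOVL5. Under OTX-015, SCD, FADS1 and ACLY were past 2-fold lower in wtBRCA1 cells, with ACSL3 at -0.998 just outside, and the shares of all genes were 12.6% lower and 27.7% either way. FADS2 had a log2 difference of 0.17 in that pair. SCD and FADS1 were thus past 2-fold lower under both treatments, as were 4.43% of all genes. The median over the 10 genes was -0.26 under DMSO and -0.73 under OTX-015, against 0.04 and 0.00 for all genes. The lines also differed in keratins, in both directions. KRT5 was at 29.4 and 23.2 FPKM (vector cells) and 980.3 and 573 FPKM (wtBRCA1 cells). KRT8 went the other way, at 8160 and 23340 against 3185 and 4476. So did KRT18, at 349 and 744 against 108 and 125. The share of short structural RNA was 2.36% and 2.66% against 5.54% and 5.71%. The part of the keratins and of short RNA in the SCD and FADS1 differences was not tested.

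Genes that supply precursor and NADPH to the pathway were read beside the enzymes. Of 6 such genes, 3 rose under OTX-015 and none fell, where 3.62% of all genes rose and 2.65% fell. Between the lines 4.84% of all genes rose and 3.37% fell. These shares hold for each list below. ME1, IDH1 and CS had no call, with OTX-015 effects of -0.15, 0.69 and -0.17. In vector and wtBRCA1 cells the log2 differences were -0.85 and 0.55 for ME1, -0.04 and 1.42 for IDH1, and -0.03 and -0.31 for CS. SLC25A1, the mitochondrial citrate carrier, was listed at 126 and 414 FPKM (vector cells) and 54.5 and 196 FPKM (wtBRCA1 cells), under DMSO and OTX-015. It rose by 1.77 ± 0.26 under OTX-015 (limma adjusted p = 0.00717) and fell by 1.13 ± 0.26 in wtBRCA1 cells (limma adjusted p = 0.027). PGD, an enzyme that yields NADPH, rose by 1.19, and ACSS2, which makes acetyl-CoA from acetate, rose by 1.17 (limma adjusted p = 0.0286 and 0.0402). Under the 12 alternatives the OTX-015 call held in 8 for SLC25A1, 3 for PGD and 2 for ACSS2. SLC25A1 was the 1 gene of the 6 that fell in wtBRCA1 cells. The FPKM ratio of ACLY to ACSS2, the enzymes of both cytosolic routes to acetyl-CoA, was 1.57 and 2.30 for vector cells, and 1.98 and 1.46 for wtBRCA1 cells, so it had the higher value under OTX-015 in vector cells and under DMSO in wtBRCA1 cells.

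Of 11 other isoforms of the same families, 8 were kept, 1 rose and 1 fell under OTX-015, and none changed between the lines. ACSL1 was listed at 21.1 and 60.2 FPKM (vector cells) and 31.7 and 123 FPKM (wtBRCA1 cells), and rose by 1.70 ± 0.31 (limma adjusted p = 0.0177). ACSL5 was listed at 18.0 and 4.16 FPKM (vector cells) and 17.9 and 1.95 FPKM (wtBRCA1 cells), and fell by 2.28 ± 0.38 (limma adjusted p = 0.0126). These calls held in 7 and 8 of the 12 alternatives. Both encode acyl-CoA synthetases like ACSL3, and ACSL4, which favours arachidonate, had 5.09 to 15.3 FPKM with no call. ACACB, the mitochondrial carboxylase, was low, at 0.0971 to 4.88 FPKM against 32.6 to 71.8 for ACACA. SCD5 was at 2.21 to 5.13 FPKM. FADS3 was at 15.2 FPKM in the vector DMSO library and 46.3 to 61.1 in the other 3, with no call.

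Besides the ELOVL enzymes, elongation uses reductases and dehydratases, and desaturation uses electron donors. Of 10 such genes 9 were kept, and TECR, the last reductase of the elongation cycle, rose by 0.93 ± 0.18 (limma adjusted p = 0.0208) with 705 and 1397 FPKM (vector cells) and 818 and 1491 FPKM (wtBRCA1 cells). CYB5R1, a cytochrome b5 reductase, rose by 1.26 ± 0.28 (limma adjusted p = 0.0307), with calls that held in 5 alternatives for TECR and 3 for CYB5R1. CYB5R3, also a cytochrome b5 reductase, was at 161 and 207 FPKM (vector cells) and 108 and 110 FPKM (wtBRCA1 cells). Its OTX-015 effect of 0.19 ± 0.27 did not pass (limma adjusted p = 0.705). HSD17B12, the ketoacyl reductase, was at 167 to 255 FPKM and CYB5A, the electron donor of desaturation, at 25.7 to 53.6, both with no call. None of the 9 changed between the lines.

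Of 16 transcriptional regulators of lipogenesis 15 were kept, and INSIG1 was the 1 that changed. INSIG1 was listed at 32.1 FPKM (vector, DMSO), 234 (vector, OTX-015), 7.70 (wtBRCA1, DMSO) and 64.5 (wtBRCA1, OTX-015). It rose by 2.87 ± 0.31 under OTX-015 (limma adjusted p = 0.00195) and fell by 1.89 ± 0.31 in wtBRCA1 cells (limma adjusted p = 0.00656), and each call held in 10 alternatives. Its library order was that of SCD except that the wtBRCA1 OTX-015 library lay above the vector DMSO library. SREBF1, which encodes SREBP-1, was at 132 and 119 FPKM (vector cells) and 67.7 and 58.1 FPKM (wtBRCA1 cells). Its line effect of -0.99 ± 0.28 did not pass (limma adjusted p = 0.0613), nor did its OTX-015 effect of -0.19 ± 0.28 (limma adjusted p = 0.728). SREBF2 was at 30.8 to 48.2 FPKM and SCAP, the escort of the SREBP proteins, at 14.4 to 36.1, with no call in either comparison.

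**Figure D3:**
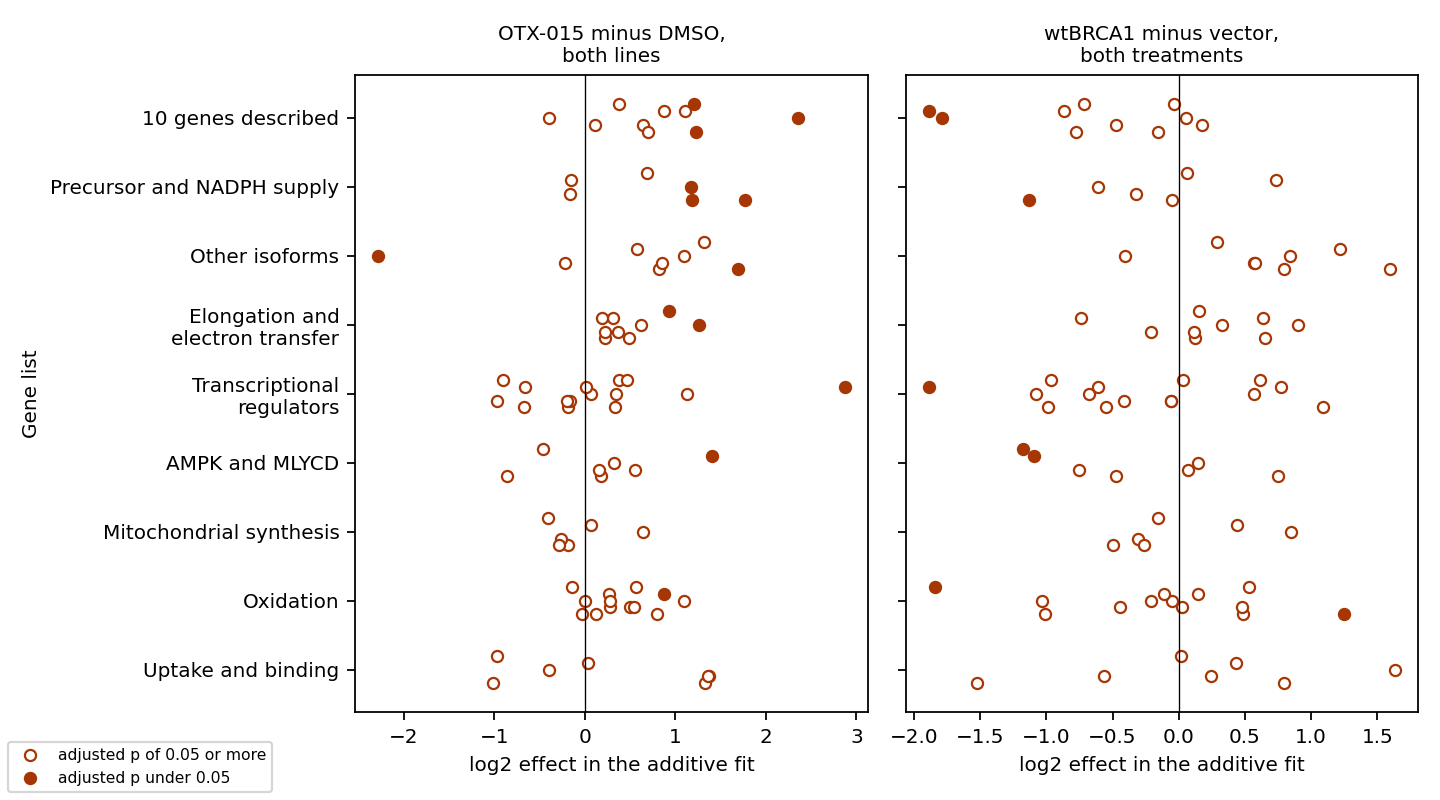
Log2 effect in the additive limma fit for each gene of the 10 enzymes and of the 8 companion lists (71 genes kept), with OTX-015 against DMSO on the left, wtBRCA1 against vector cells on the right, 1 circle per gene and filled circles for an adjusted p under 0.05. INSIG1 is the filled circle furthest right at 2.87, ACSL5 the one furthest left at -2.28, and the mitochondrial synthesis and uptake lists have none.

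Other lists covered the control, breakdown and uptake of fatty acids. A list of 8 genes held subunits of AMPK, the kinase that inhibits ACACA, with its upstream kinase STK11 and the malonyl-CoA decarboxylase MLYCD, and 7 were kept. PRKAG1 rose by 1.41 ± 0.28 under OTX-015 (limma adjusted p = 0.0226), and PRKAG1 and PRKAG2, both regulatory AMPK subunits, fell in wtBRCA1 cells by 1.09 and 1.18 (limma adjusted p = 0.0423 and 0.0471). Of 13 genes of fatty acid oxidation, ACADVL rose by 0.87 ± 0.21 under OTX-015 (limma adjusted p = 0.0429). ACADM, the medium-chain dehydrogenase, fell by 1.84 ± 0.29 in wtBRCA1 cells (limma adjusted p = 0.00597), from 159 and 174 FPKM to 52.5 and 39.6, and the electron carrier gene ETFDH rose by 1.25 ± 0.33 (limma adjusted p = 0.0464). CPT1A, the gate of mitochondrial import, was at 13.0 to 33.1 FPKM with no call. The ACADM call held in 10 alternatives, and those of PRKAG1, PRKAG2, ACADVL and ETFDH in 2 to 4. None of 6 mitochondrial synthesis genes and none of 7 uptake and binding genes passed the limma test in either comparison. At an unadjusted p under 0.05 these lists had 0 and 4 genes for OTX-015 and 1 and 2 for the line, against 22.8% and 23.4% of all genes.

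Directions under OTX-015 depended in part on how the libraries were put on a common scale. With each library rescaled to the same sum, the median of all genes shifted by -0.48 in vector cells and -0.43 in wtBRCA1 cells, and the genes called were 111 higher and 1281 lower in place of 662 and 485. Scaling to the sum over protein-coding genes, chosen after seeing the data, gave 280 and 655, with shifts of -0.12 and -0.21. FASN rose under every scaling. On the rescaled sum the OTX-015 effects of ELOVL1, ELOVL6 and ACACA turned to -0.29, -0.48 and -0.0053, and those of ACLY and ACSL3 were 0.57 and 0.54 with no call. SCD fell in wtBRCA1 cells under every scaling, and FADS1 under all but the rescaled sum, where its effect was -1.81 (limma adjusted p = 0.0537).

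**Figure D4:**
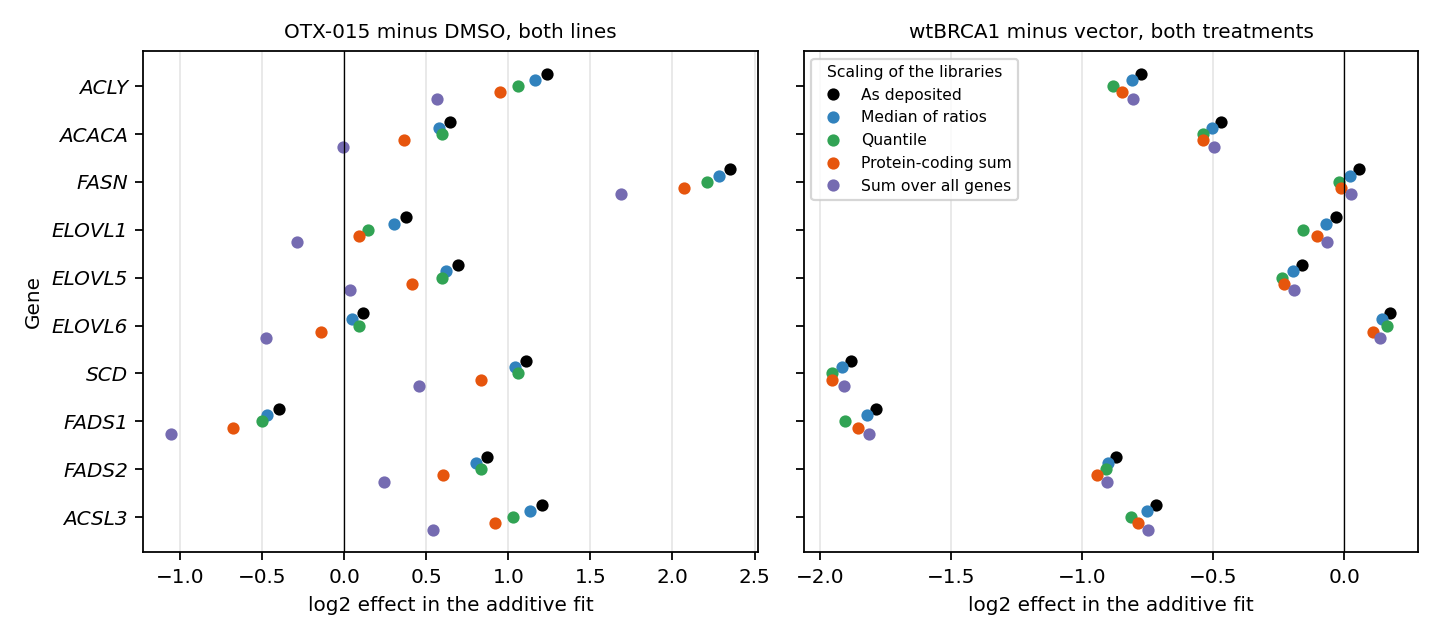
Log2 effect of each of the 10 genes in the additive fit, for OTX-015 (left) and wtBRCA1 (right), with 1 colour per scaling of the libraries. The OTX-015 points move left when libraries are rescaled to the same sum, with FASN at 1.69 the furthest right, while SCD and FADS1 stay between -1.96 and -1.78 at the right.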

How the data were processed

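The deposited values are FPKM per gene. Per the submitters' processing notes, the authors used TopHat2, Cufflinks and the hg38 build. Tool versions, annotation and library scaling are not given in the sources used here. Poly(A) RNA was made into directional libraries, per the labels' protocols. The 4 files were merged on gene identifier, and GENCODE 29 held 94.2% of the identifiers. Short structural RNA rows (7037) were left out and rows that share a symbol (67 symbols) were summed. limma 3.58.1 (R 4.3.3) was fitted to log2(FPKM + 1) with line and treatment as terms and a mean-variance trend, which leaves 1 residual degree of freedom per gene. A difference on this scale understates the change of low genes. The procedure was tested on simulated data. No pairs or differences of responses were tested, since each group has 1 library.

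The 10 genes and the 8 companion lists (77 genes) were chosen with earlier results of these data known, and 1 further gene is not reported here. Named companions are those past the threshold, a fixed set of pathway genes, some further genes of the lists with no call, and overlapping or adjacent genes at 10 FPKM or more. The 12 alternatives are given in the closing section. Keeping 1 row per symbol cannot alter the values of the 10 genes or the companions, which have 1 row each. Python 3.11.15, pandas 2.3.3, numpy 2.4.6 and matplotlib 3.10.9 were used.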

Additional observations from a re-analysis of the deposited data

Results flagged for a closer look

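The FADS1 response to OTX-015 went in opposite directions in the 2 lines, with a log2 difference of -0.93 in vector cells and 0.13 in wtBRCA1 cells, a difference of responses of 1.06. That opposite direction depends on the scaling, since the wtBRCA1 value was -0.465 with each library rescaled to the same sum and -0.18 with the protein-coding sum, where the differences of responses were 1.17 and 0.996. FADS2 also went in opposite directions, at -0.17 in vector cells and 1.91 in wtBRCA1 cells, a difference of responses of 2.09. The FADS2 directions held under each of the 4 other scalings. Each rests on 1 library per group, so neither difference was tested, and 27.2% of all genes differed by at least 1 log2 unit. For FADS2 the difference turns on the wtBRCA1 DMSO library, which was listed at 5.13 FPKM against 19.5 to 22.1 in the other 3. For FADS1 the vector DMSO library was the highest at 173 FPKM, and the share of FADS1 and FADS2 reads in their overlap of 29694 bases is not known from these values.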

How the results depend on the processing

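Genes called for OTX-015 numbered 1147 as reported, 753 with a pseudocount of 0.1, 414 with 5, 520 with a filter at 5 FPKM, 80 with no filter, 612 with median-of-ratios scaling (312 higher, 300 lower), 67 with quantile scaling, 4 with no trend and 1 with the line left out of the model. Of the 10 genes, 3 were called as reported, 1 with a pseudocount of 5, either change of filter or any of the 4 scalings, and 0 with no trend or the line left out. Genes called for wtBRCA1 numbered 1503 as reported, 853 with a pseudocount of 5, 823 with the filter at 5 FPKM, 495 with no filter, 660 with each library rescaled to the same sum, 697 with quantile scaling, 163 with no trend and 57 with the treatment left out. Of the 10 genes 2 were called, 1 with no filter or the rescaled sum and 0 with no trend or the treatment left out. The 1 gene left under the rescaled sum was FASN for OTX-015 and SCD for the line. On the rescaled sum the OTX-015 effects of ACACA (-0.0053), ELOVL1 (-0.29) and ELOVL6 (-0.48) changed sign, and 2 genes were past 2-fold in vector cells. The medians over the 10 genes were 0.30 in vector and 0.0514 in wtBRCA1 cells, where the median of all genes shifted by -0.48 and -0.43. Scaling to the protein-coding sum, chosen after seeing the data, changed the sign of ELOVL6 (-0.14) for OTX-015 and FASN (-0.0123) for the line. It put 5 of the 10 genes past 2-fold lower in wtBRCA1 than in vector cells under OTX-015 and none past 2-fold higher. No share of all genes past 2-fold was computed on this scale or on the rescaled sum. Quantile scaling changed the sign of FASN (-0.0199) for the line, which was 0.06 as reported. None of the effects that changed sign passed the limma test on either scale. The cause was not tested. Depth is unknown, which limits the low genes most. Keeping 1 row per symbol, the highest on average, gave 1141 and 1495 genes called for OTX-015 and wtBRCA1, and robust estimation gave 1117 and 1472, with 3 and 2 of the 10 genes called in both. No paired analysis was possible because a block by replicate number needs more than 1 library per group; the reported fit already compares within line and within treatment, and leaving out either term is the unpaired form. Leaving out a library was not run, since it leaves no residual.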
